A study of Mus musculus with 5 samples.

Results

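The Kruppel-like factors measured here are 7 transcription factor genes, Klf13, Klf2, Klf3, Klf4, Klf5, Klf6 and Klf9, which are read by 11 of the 12422 probe sets on the array. They were taken by gene symbol from the platform annotation, with Klf1 left out as erythroid. Klf13 was chosen by the wide spread of its signal across these same 5 samples, so its spread is given as a description, with no test. RNA came from 5 mouse samples of bone marrow cells labelled as dendritic cell progenitors positive for FLT3 and CD11b, numbered 1 to 5. The labels name no strain, age, treatment, animal or pool, and all samples form 1 group with 1 array per sample, so no conditions could be compared. Nothing says that the samples came from separate animals. A p-value here only sets the spread of a probe set between these samples against that of the other probe sets. It does not measure variation between animals. In such bulk RNA, fewer cells of a type and less RNA per cell cannot be told apart.

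Kruppel-like factors are zinc finger proteins that bind GC-rich and CACCC sequences in promoters and enhancers, and they share these sites with the related SP factors. Some activate transcription, while others recruit the corepressors CtBP or Sin3. In blood, Klf4 is known as a regulator of monocyte differentiation, Klf2 keeps lymphocytes quiescent, and Klf13 was described in T cells as an activator of the chemokine gene Ccl5.

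The promoter sequences of 3 members are shown because these genes had the widest spread among the members and because Klf4 and Klf2 are described targets of MEF2 factors. Each is the 250 bases before the RefSeq gene start on GRCm38.p6, read 5′ to 3′ on the strand of the gene. Capitals mark the CACCC box, searched as CACCC on both strands (GGGTG on the other), and an A/T core that fits the MEF2 site, searched as TAAATTTA, which reads the same on both strands. No CACCC box overlapped a MEF2 core. Klf13 lies on the minus strand, with its window at chr7:63938916-63939165; Klf4 lies on the minus strand, with its window at chr4:55532476-55532725; Klf2 lies on the plus strand, with its window at chr8:72318812-72319061.
Klf13: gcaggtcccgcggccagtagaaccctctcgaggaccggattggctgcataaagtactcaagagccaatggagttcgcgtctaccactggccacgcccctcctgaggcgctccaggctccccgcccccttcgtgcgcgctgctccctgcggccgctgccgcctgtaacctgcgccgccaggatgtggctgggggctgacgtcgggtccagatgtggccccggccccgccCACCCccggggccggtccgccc
Klf4: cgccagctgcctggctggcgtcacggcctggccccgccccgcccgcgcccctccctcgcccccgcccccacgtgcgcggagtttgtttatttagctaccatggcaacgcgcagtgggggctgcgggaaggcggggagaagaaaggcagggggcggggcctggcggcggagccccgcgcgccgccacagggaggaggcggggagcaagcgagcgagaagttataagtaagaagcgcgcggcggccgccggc
Klf2: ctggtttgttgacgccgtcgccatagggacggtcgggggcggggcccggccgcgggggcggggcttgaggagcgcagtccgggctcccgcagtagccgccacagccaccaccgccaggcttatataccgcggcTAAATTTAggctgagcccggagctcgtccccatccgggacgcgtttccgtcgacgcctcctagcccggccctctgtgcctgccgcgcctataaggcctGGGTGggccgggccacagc

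The Klf13 window held 1 CACCC box, starting 22 bases before the gene start, and that of Klf2 held 1, starting 19 bases before it. The Klf2 window also held a MEF2 core, starting 117 bases before the gene start. Among 32536 RefSeq windows of this length, 52.1% held a CACCC box and 0.504% held this MEF2 core. The Klf4 window held neither sequence. For MEF2, only the exact spelling given above was searched. The share and the absences therefore cover that spelling and not MEF2 sites spelled otherwise. Of the other members in the table, the Klf3 window held 5 CACCC boxes, the Klf9 window 1 and the Klf6 window none, and none of the 3 held the MEF2 core. A match describes letters in these windows and does not show binding.

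Signals are array intensities after each array was scaled to a common median of 103.4, and mean ± SD is over n = 5 samples. For log2 values, signals under a floor of 30.0 were raised to it. Pearson's r of log2 signal between samples, over 5814 probe sets that are not independent, ran from 0.791 to 0.907. For the transferrin receptor control, the signal of 3′ probes over that of 5′ probes ran from 3.14 in sample 1 to 16.7 in sample 3. Flt3 and Itgam, the CD11b gene, which the sort used, both exceeded the median on every array. Among T and NK cell genes, 0 of 8 exceeded it on every array, and among endothelial and stromal genes 3 of 10 did so, Pecam1, Vwf and Col1a2, while 5, Cdh5, Tek, Tie1, Col3a1 and Sparc, exceeded it on none. The other probe sets of Vwf and Col1a2 lay under the floor, that of Vwf on 4 arrays and that of Col1a2 on all 5. In contrast, 11 of 12 neutrophil granule genes and 6 of 9 monocyte genes exceeded the median on every array.

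Of the 7 Kruppel-like factor genes, 6 had a probe set above the array median on all 5 arrays, and Klf2 was the exception. Over all 8251 named genes the share above the median on every array was 44.5%. A probe set above this limit ranks in the upper part of its array, which is no detection call.

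**Figure D1:**
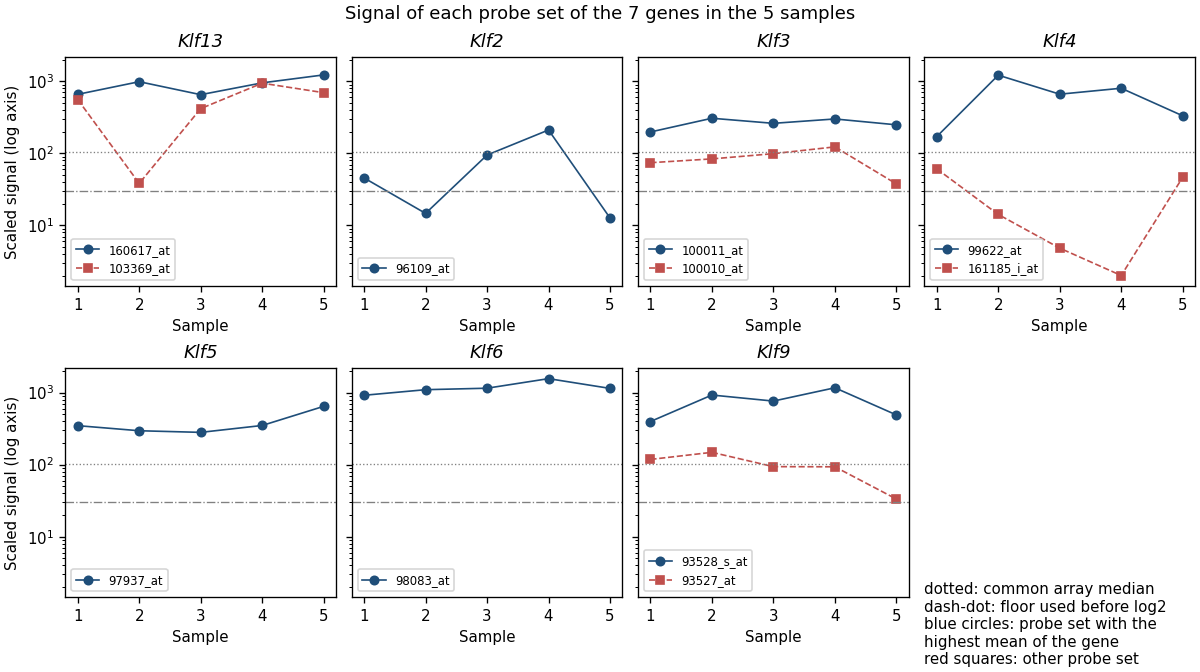
Scaled signal (log axis) of each of the 11 probe sets of the 7 genes in samples 1 to 5; lines only join the points of 1 probe set, and the samples have no order. The Klf13 probe sets part in sample 2, at 38.3 and 987, and the main Klf4 probe set runs from 171 in sample 1 to 1216 in sample 2.

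Klf13 was read by 2 probe sets that gave different pictures. The probe set 103369_at, whose spread led to the choice of the gene, had signals of 558, 38.3, 418, 941 and 695 in samples 1 to 5. Sample 2 was thus far below the others, which lay within a factor of 2.25 of one another. The highest signal was 24.6 times the lowest, and the SD of log2 signal was 1.85, at percentile 99.9 of probe sets in the same decile of mean signal. Without sample 2 the SD was 0.49, and sample 2 was also the lowest, at 26.9, in the values as deposited.

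The other probe set, 160617_at, did not show the low value. Its signals were 659, 987, 652, 951 and 1226 in samples 1 to 5, so that sample 2 held the second highest value. The highest signal, in sample 5, was 1.88 times the lowest, in sample 3, with sample 1 close to it and lowest when arrays were scaled to their 75th percentile. The SD of log2 signal was 0.40, at percentile 40.9 among probe sets of like level, below the median SD of 0.47 over 5814 probe sets with a mean above the array median. The wide spread of Klf13 therefore rested on 1 of its 2 probe sets and, within it, on 1 sample.

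The disagreement between the probe sets of Klf13 was compared with that of other genes. In sample 2, the deviations of its probe sets from their own 5-sample means differed by 3.41 log2 units, -3.22 for 103369_at and 0.18 for 160617_at. Among 801 pairs of probe sets from 630 genes, both with a mean above the median, the median of the largest such difference in any sample was 0.90. Klf13 lay at percentile 99.9, and 1 pair had a larger difference. This is a description, since Klf13 was chosen for the spread that enters it.

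**Figure D2:**
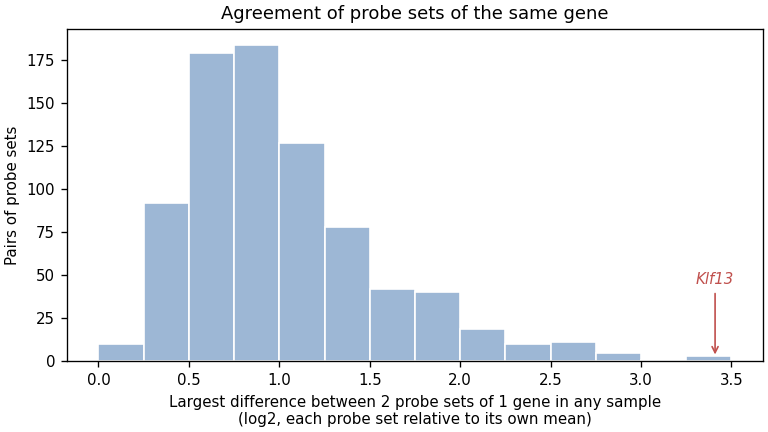
Number of pairs of probe sets (vertical axis) by the largest difference in any sample between the deviations of 2 probe sets of the same gene from their own means, in log2 units (horizontal axis), for 801 pairs. The median is 0.90 and the Klf13 pair stands at 3.41.

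A probe set far below its level in a single sample was uncommon on these arrays. Of 5814 probe sets, 11 (0.189%) had a signal in sample 2 more than 4-fold below the lowest other sample, with signals under the floor set to it, and 103369_at was among them. The same count was 26 in sample 1, 36 in sample 3, 8 in sample 4 and 23 in sample 5. Over the 5 arrays, 20 such probe sets belonged to genes with another probe set whose mean exceeded the median. In 0 of 20 was another probe set of the gene also low alone in that sample. The 20 include 103369_at, chosen for its spread. Per array, 0.138% to 0.619% of all probe sets were low alone, and no expected count for second probe sets was computed. The 0 of 20 is therefore a description only. Where on the array or in the transcript the probe sets of Klf13 lie was not analysed here, and the part of the probes themselves in the value of 38.3 was not tested.

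The genes with profiles most like that of Klf13 were sought by the root mean square difference of log2 deviations from the mean over 5 samples, among 4556 other named genes. By the probe set with the higher mean, 160617_at, the 10 nearest genes were Pigk, Cmtm6, Eya1, Npc2, Trak1, Akt2, Gabarapl1, Rasgrp2, Gabbr1 and Angptl4, at 0.071 to 0.112 log2 units. Npc2, which encodes a lysosomal cholesterol carrier, had 2056, 3165, 2414, 3143 and 4242 in samples 1 to 5. Its highest value fell in sample 5, as in Klf13, a likeness that follows from the search. Gabarapl1, an autophagy protein gene, had 320.5, 477, 348, 475 and 539.8. These profiles share modest spreads, with SDs of 0.31 to 0.48. With the profile turned, the 5 nearest were Mtarc2, Dusp2, Ddost, Mrpl21 and Adk, at 0.067 to 0.101; Dusp2, a MAP kinase phosphatase gene, had 277, 191, 299, 195 and 179.

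By the probe set 103369_at the nearest genes were others. They were Galnt2, Mybbp1a, Map1s, Cherp, Slc7a7, Mcm10, Ptp4a3, Ginm1, Fmo5 and Dxo, at 0.520 to 0.775, and 0 of 10 were shared with the first search. All 10 had their lowest signal in sample 2, which follows from a search for profiles like one far lowest in that sample. Galnt2, a gene of O-glycosylation, had 476, 35.0, 237, 345 and 302, and the replication gene Mcm10 had 192, 22.2, 236, 221 and 182. With the profile turned, Cadm1, St6galnac2, Sema4b, Trib3 and Zdhhc9 came closest, at 0.562 to 0.973, and Cadm1, an adhesion molecule gene, had 104, 989, 74.5, 86.8 and 42.4.

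**Figure D3:**
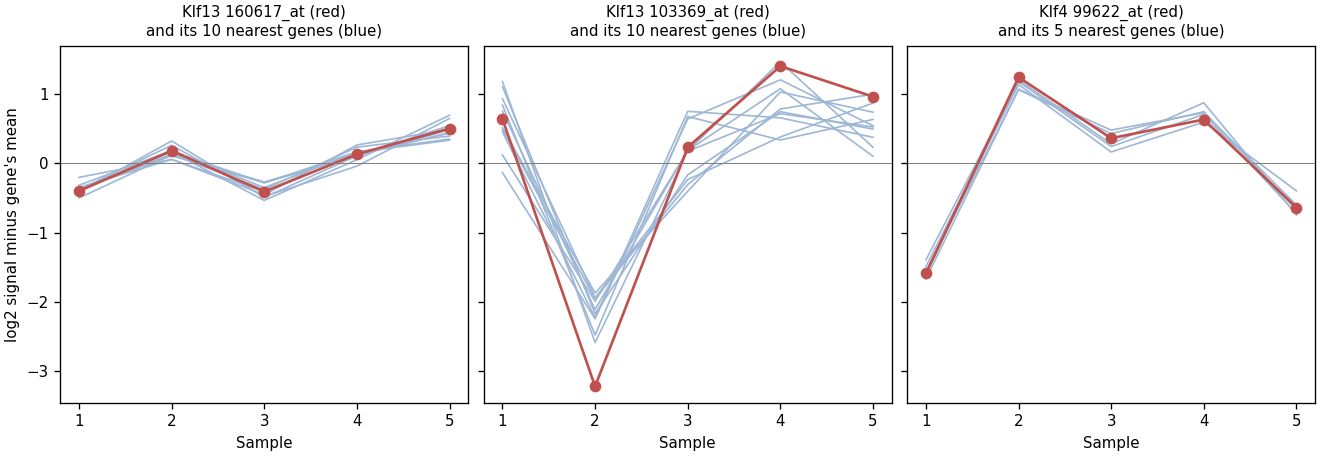
Log2 signal minus the gene's own mean (vertical axis) in samples 1 to 5 for the Klf13 probe sets and Klf4 (red) and their nearest genes by root mean square difference (blue); lines only join the points of 1 probe set. The nearest genes lie within 0.112 log2 units of 160617_at and within 0.155 of Klf4, but 0.520 to 0.775 from 103369_at.

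Partners and described targets of Klf13 were measured in part. Among genes of cofactors of Kruppel-like factors, 12 of 15 were measured and 10 exceeded the median on all 5 arrays, against 44.5% of named genes. Kat2b, the acetyltransferase PCAF, had 186, 499.9, 424, 453 and 294 in samples 1 to 5, and Smarca4, the remodelling ATPase BRG1, 1159, 582, 709, 489 and 888. The corepressor gene Sin3a had 737, 517, 1054, 744 and 857, and Hdac1, a histone deacetylase of the same complex, 629, 413, 577, 635 and 482. Nlk, a kinase described as a partner of KLF13, exceeded the median on no array.

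Ccl5, the chemokine gene that KLF13 activates in T cells, had signals under the floor in all 5 samples, between 10.3 and 27.6. Bcl2l1, which encodes the survival protein Bcl-xL and was described as repressed by KLF13, had 322, 256, 269, 167 and 502. Its highest signal fell in sample 5, where 160617_at was also highest, and its lowest in sample 4. With 1 array a sample, these orders carry no error of their own.

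Klf4 had the widest spread among the remaining members with signal above the median. Signals of 99622_at in samples 1 to 5 were 171, 1216, 662, 801 and 332. Samples 2, 4 and 3 were high and samples 1 and 5 low, and the highest value was 7.12 times the lowest. The SD of log2 signal was 1.12, at percentile 99.0 among probe sets of like level. The other probe set of Klf4, 161185_i_at, exceeded the median on no array and lay under the floor on 3, so it could not bear on this order. In the values as deposited, where sample 1 keeps its higher scale, Klf4 was again highest in sample 2, at 855, but lowest in sample 5, at 260.5, with 647 in sample 1 and an SD of 0.63.

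In the fit of all 5814 probe sets, limma's test of variance between samples called 0 (0%) at an adjusted p under 0.05. Of the members other than Klf13, 5 probe sets entered the test and 0 were called, with adjusted p-values from 0.925 for Klf4 to 0.995. At an unadjusted p under 0.05 limma counted 290 probe sets, and of the 5 member probe sets Klf4 alone was among them (unadjusted p = 0.0149). The distribution behind these p-values was fitted to the variances of the same 5814 probe sets. A count of about this size under 0.05 is therefore expected from the fit alone. A p that misses the threshold does not show that the samples were alike.

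The 5 named genes with profiles nearest to Klf4 were St3gal5, Rbm39, Jarid2, Yipf4 and Mef2d, at 0.100 to 0.155 log2 units. Mef2d encodes a MEF2 factor, the family through which the kinase ERK5 is known to induce Klf2 and Klf4, and had 398, 2455, 1251, 1687 and 848 in samples 1 to 5. Mef2d was lowest in sample 1 and highest in sample 2, as Klf4 was. All 5 genes were picked for closeness to Klf4, so this likeness follows from the search. A part of MEF2 factors in the Klf4 values was not tested. Jarid2, a cofactor of the Polycomb complex PRC2, had 398, 2366, 1237, 1706 and 633, and the splicing factor gene Rbm39 283, 1887, 1254, 1491 and 593. Of the 6 genes of the ERK5 and MEF2 route, Mef2d and Mef2a exceeded the median on all 5 arrays. Mef2a had 174, 402, 249, 476 and 320.2 and ranked 605 among 4556 genes by closeness to Klf4. Mapk7, which encodes ERK5 itself, had 84.5, 16.2, 33.4, 138 and 337, with sample 2 under the floor and sample 5 highest.

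**Figure D4:**
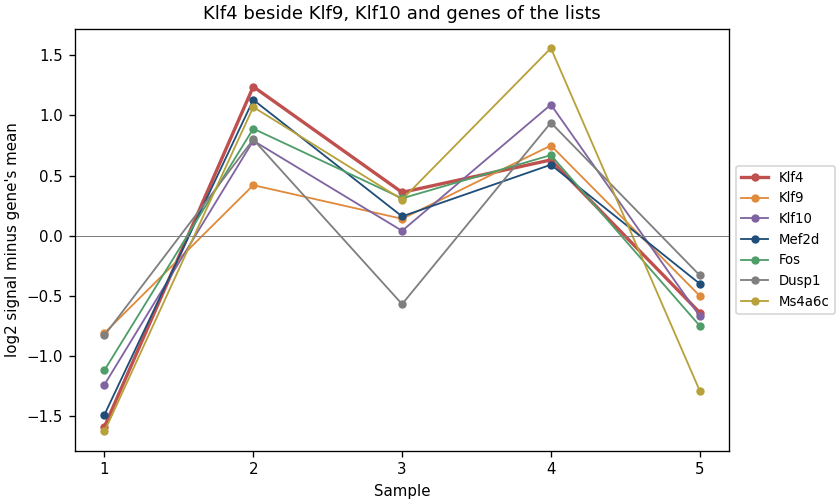
Log2 signal minus the gene's own mean (vertical axis) in samples 1 to 5 for Klf4, Klf9, Klf10, Mef2d, Fos, Dusp1 and Ms4a6c; lines only join the points of 1 gene. All 7 lie below their mean in samples 1 and 5 and above it in samples 2 and 4, while Dusp1 alone lies below it in sample 3. The order was taken from Klf4, and only genes that meet it are shown, so their agreement is not a result. Other genes of the lists, among them Ier2, Fn1 and Per1, do not meet it.

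This order, above the gene's mean in samples 2 and 4 and below it in samples 1 and 5, was picked after the values of Klf4 had been seen. It was found in 1076 of 4557 named genes with a mean above the median (23.6%). Among the Kruppel-like factors with such a mean it was found in 3 of 6, Klf3, Klf4 and Klf9. Klf4 is counted by construction, since the order was taken from its values. Klf3 met the order narrowly, with a deviation of -0.06 log2 units in sample 5. The count therefore cannot be read against the share of 23.6%. Immediate early genes showed the order in 5 of 11, namely Fos, Jun, Junb, Dusp1 and Atf3. Each gene was counted by its probe set with the highest mean. Other probe sets of Fos, Junb and Atf3 had means under the median and did not show the order. Fos, an AP-1 subunit, had 654, 2622, 1759.5, 2249 and 845 and ranked 16 among 4556 genes by closeness to Klf4.

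Markers of monocytes showed the same order in 6 of 9 genes, which were Csf1r, Ccr2, Cd14, Ms4a6c, Vcan and Irf8. Ms4a6c had 193, 1254, 734, 1759 and 245 and Irf8, a factor of the monocyte and dendritic lineages, 82.6, 368, 350.3, 360.3 and 208. The summed signal of the 9 monocyte genes ran from 8617 in sample 1 to 24362 in sample 4, and no marker was at 0. Neutrophil granule genes showed the order in 0 of 11, and their summed signal ran from 82439.7 in sample 1 to 276174 in sample 4. Ngp, S100a8, S100a9 and Mmp8 missed it by sample 5 alone, with deviations of 0.47, 0.24, 0.07 and 0.02 log2 units there. Mpo, Elane, Prtn3, Ctsg, Ltf, Camp and Lcn2 were below their mean in sample 2. By closeness to Klf4 among 4556 genes, Irf8 ranked 48, Ms4a6c 244, S100a8 295 and Vcan 3548. S100a8 was the only neutrophil granule gene ranked, and it missed the order by sample 5 alone. Neither the counts nor these ranks therefore settle how the 2 lists as wholes compare in likeness to Klf4. Gate and progenitor genes showed it in 2 of 5, Flt3 and Cd34. Flt3 had 571, 1212, 353, 1268 and 318, though its other probe set, at 255, 377, 265, 376 and 345, was above its mean in sample 5. Itgam, the other gene of the sort, did not show the order, with 789, 546, 223, 343 and 486. The part of these markers in the Klf4 values was not tested.

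Klf9, which responds to glucocorticoids and thyroid hormone and works with Sin3, had signals of 396, 923, 761, 1164 and 489 in samples 1 to 5 by 93528_s_at. Samples 4, 2 and 3 were higher than samples 5 and 1, with a highest value 2.94 times the lowest and an SD of 0.64 (limma adjusted p = 0.943). Its other probe set, 93527_at, had 118, 148, 93.7, 93.2 and 33.3 and exceeded the median on 2 arrays. Both probe sets were above their mean in sample 2 and below it in sample 5. They differed most in sample 1, where 93528_s_at deviated from its mean by -0.81 log2 units and 93527_at by 0.44. Of 6 genes of the glucocorticoid response, 4 exceeded the median on every array. Fkbp5, a chaperone of the glucocorticoid receptor, had 2185, 2164, 1836, 2383 and 2286, an SD of 0.14, while Zbtb16, which encodes the factor PLZF, had 133, 905, 479, 1413 and 258. Sgk1, a kinase gene, had 362, 1204, 770.2, 917 and 610.2, and Per1, a clock gene, 458, 369.7, 280.1, 446 and 490.1. Zbtb16 and Sgk1 shared the order of Klf9 in samples 1, 2, 4 and 5 relative to their means, and Fkbp5 and Per1 did not. This order, first taken from Klf4, was found in 23.6% of named genes with a mean above the median. The 2 of 4 here is a description only. The other probe set of Zbtb16, with 121, 119.8, 76.4, 131 and 36.4, was above its mean in sample 1. Tsc22d3, of the same list, exceeded the median only in sample 5, at 114, where both Klf9 probe sets were below their means. A part of glucocorticoids in the Klf9 values was not tested.

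Klf2, a factor of quiescent lymphocytes and endothelium, had signals of 45.6, 14.7, 94.8, 211 and 12.7 in samples 1 to 5. Sample 4 alone exceeded the array median, at 7.01 times the floor, and samples 2 and 5 lay under the floor and have no order. Its 1 probe set had a mean under the median and did not enter the test. For the cell types in which Klf2 is best known, 0 of 8 T and NK cell genes exceeded the median on every array. The endothelial genes were mixed, with Pecam1 at 114 to 221 and Vwf at 250.5 to 608, above the median on all 5 arrays, Kdr above it on 1 and Cdh5, Tek and Tie1 on none. The part of these cells in the Klf2 values was not tested. Of the described KLF2 targets, 5 of 6 were measured and 2 exceeded the median on every array, the integrin gene Itgb7, with 588, 1210.2, 368, 467 and 407, and the cell cycle inhibitor gene Cdkn1a, with 251, 387, 201, 416 and 300.4. S1pr1, the sphingosine phosphate receptor of lymphocyte egress, exceeded it on no array, with signals from 32.6 to 75.2 by its probe set with the higher mean. Itgb7 was highest in sample 2, where Klf2 was under the floor.

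Klf6, an immediate early factor of wound repair and macrophage activation, varied little. Its signals were 916, 1095, 1148, 1558 and 1141 in samples 1 to 5, a mean of 1172 ± 236, with sample 4 highest and sample 1 lowest. The SD of log2 signal was 0.28, at percentile 16.3 among probe sets of like level (limma adjusted p = 0.995). Among described targets of KLF4 and KLF6, 3 of 6 genes exceeded the median on every array. Cd14, the endotoxin co-receptor gene, had 505, 664, 481, 762 and 384, and Tgfb1, a cytokine gene, 1042, 389.9, 250.1, 293 and 1263. Tgfb1 was high in samples 5 and 1, while Klf6 was highest in sample 4 and lowest in sample 1. Cdkn1a was the third gene above the median, and Tgfbr1, Eng and Plau did not exceed it on every array. A part of KLF4 or KLF6 in the values of these genes was not tested.

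Klf3, a repressor that recruits CtBP, was also even across samples. The probe set 100011_at had 198, 307, 261, 300.1 and 249, an SD of 0.25, at percentile 13.7 (limma adjusted p = 0.995). The other, 100010_at, had 74.2, 83.8, 99.0, 123 and 37.7 and exceeded the median on 1 array. Both gave a higher value in sample 4 than in samples 1 and 5. The corepressor genes Ctbp1 and Ctbp2 exceeded the median on all 5 arrays, Ctbp1 with 1039, 1579, 1198, 1424 and 1224, and Ctbp2 with 258, 527, 768, 717 and 407.

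Klf5, a factor known from proliferating epithelium, had signals of 347, 295, 280.1, 349 and 643 in samples 1 to 5. Sample 5 stood above the others, which lay between 280.1 and 349. The highest value was 2.29 times the lowest, and the SD was 0.48, at percentile 55.6 (limma adjusted p = 0.995). Without sample 5 the SD was 0.16. Klf13 by 160617_at was likewise highest in sample 5, and the distance between these profiles was 0.313 log2 units, against 1.253 between Klf5 and Klf4. Klf13 by 160617_at lay about as close to Klf3 by 100011_at, at 0.315, and to Klf6, at 0.344. The nearest profiles among the members were Klf3 and Klf6, at 0.176. Such a distance is small wherever both profiles spread little, so these values do not show a shared order.

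Relatives outside the 7 genes were measured in 8 of 18 cases, and 4 exceeded the median on all 5 arrays, Klf7, Klf10, Sp1 and Sp3. Klf10, a factor induced by TGF-beta, had 182, 745, 441, 912 and 269.6 by the probe set with the higher mean and 327, 743, 361, 792 and 209 by the other. Its probe sets thus gave high values in samples 2 and 4 alike, unlike the pair for Klf13. By closeness to Klf4, Klf10 ranked 54 among 4556 genes, at 0.355 log2 units. Klf7 had 259, 397, 202, 553 and 248. Sp1, the ubiquitous founder of the SP group, had 497, 984, 1444, 1687 and 1157 and Sp3 599.6, 630.0, 1084, 1290.4 and 933, both lowest in sample 1 and highest in sample 4. Klf12 and Sp4 exceeded the median on no array.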

How the data were processed

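The deposited values are linear intensities for each probe set on an array. Their software and scaling are not given in the sources used here. After trimming 2% at both ends, the deposited mean was 1001 for sample 1 and 200.1 for the other samples. Control probe sets (66) were removed, a single factor per array brought all medians to 103.4, and a floor at the 25th percentile of the scaled values was applied ahead of log2. Of 12422 probe sets, 10833 had 1 gene symbol in the platform annotation, 396 several and 1193 none. Where several probe sets read a gene, the one highest in mean log2 signal stood for it. Spread was tested with limma 3.58.1 under R 4.3.3, in a fit of the variance trend with a robust prior over the 5814 probe sets whose mean exceeded the array median, and Benjamini-Hochberg adjustment over all of them. Scripts were tested on simulated data. Arrays carry no depth, and their number limits the precision. Samples formed 1 group. The members, gene lists and tests were chosen with earlier results of these data known. The naming rule covered the 7 members, the listed genes, the 10 genes nearest to Klf13, the 5 nearest to its turned profile and the 5 nearest to Klf4, which was second to Klf2 in SD over the probe sets that stood for the member genes. The searches with 103369_at and the order seen in Klf4 were added after values were seen. Alternatives were other scalings, floors, limits, priors and leaving out each sample.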

Additional observations from a re-analysis of the deposited data

Results flagged for a closer look

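Dixon's ratio on log2 signal set 1 sample apart from the other 4 in 8 of 83 probe sets named in the text. Chance sets about 1 in 20 groups apart, but 6 of the 8 are the Klf13 probe set chosen for its spread and genes found through it, so the count cannot be read against that share. Klf13 by 103369_at, at 38.3 in sample 2, is given as a description, since its spread led to the choice of the gene. Klf5 was set apart at 643 in sample 5. Galnt2 (35.0), Map1s (32.3) and Mcm10 (22.2), low in sample 2, and Cadm1 (989) and St6galnac2 (567), high in sample 2, were found by their likeness to that Klf13 profile or to its turned form, so they are not separate evidence. Map2k5, the kinase gene upstream of ERK5, was set apart at 41.4 in sample 3.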

How the results depend on the processing

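The count of members above the array median on all arrays, 6 of 7, was 6 at the 40th percentile, with 3 arrays sufficing, with any probe set counted and without each sample in turn, but 3 when the 75th percentile was the limit. The median SD over the 11 member probe sets was 0.64 and ran from 0.33 (without sample 5) to 0.71 as each sample was left out. It was 1.17 in the values as deposited, 1.07 over all 12422 probe sets there against 0.53. The number of members other than Klf13 called for variance by limma was 0 under each alternative, with 5 to 9 probe sets tested. Of the 10 genes nearest to Klf13, 8 were shared by the largest absolute difference and 8 after quantile normalization, and 0 with the profile of the other probe set, an alternative added after seeing the data. For single probe sets, 6 of 110 SDs moved by at least their own size, 5 of them in the values as deposited. In the values as deposited, sample 1 keeps its higher scale, with a trimmed mean of 1001 against 200.1 in each other sample. The part of this scale in the moved SDs was not tested. No paired analysis was possible because the samples form 1 group.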
